A study of Mus musculus with 23 samples.

Results

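Foxp3+ regulatory T (Treg) cells that arose from Foxp3- T cells after transfer into lymphopenic hosts were compared with Treg cells taken from the lymph nodes of unmanipulated mice. The comparison uses 5 of the 23 arrays of the study, chosen by their titles: 3 arrays of converted cells and 2 arrays of resident cells. All groups were CD3+CD4+ T cells sorted without B220, CD8a and CD11b/c from male mice of 6 to 10 weeks, and mice were pooled for each array. The homeostatic Foxp3+ group (3 arrays, 2 to 3 mice each) held GFP+ cells. They were taken from the spleen and nodes of NOD RAG-/- hosts that had received, 14 days before and intravenously, GFP- CD4+ cells of BDC2.5/NOD/Foxp3-GFP mice, which carry a transgenic T cell receptor. The homeostatic Foxp3- group (3 arrays, 2 to 3 mice each) held the cells of the same kind of transfer that were GFP- when sorted. The LN CD103-Klrg1- group (2 arrays, 4 to 6 mice each) held GFP+ cells from peripheral lymph nodes of C57BL/6-Foxp3/GFP mice, sorted to lack both the Itgae product CD103 and the receptor Klrg1. Strain, T cell receptor transgene, host and tissue all change together between the homeostatic and the lymph node groups and cannot be told apart. For that reason the homeostatic Foxp3- arrays, which share all of them with the converted cells, were used to mark differences that both homeostatic groups show. These arrays also differ from the resident ones in Foxp3 status, which the mark does not separate from the transfer system. RAG-deficient hosts cannot form lymphocytes with rearranged receptors but keep myeloid, erythroid and natural killer cells. The other groups of the study enter the model and are named in places. Gut Treg, gut conventional, LN CD103+Klrg1- and LN CD103+Klrg1+ cells came from C57BL/6 mice (2 arrays each, 4 to 6 mice per array). DEC CD25+ (3 arrays) and DEC CD25- (4 arrays) were Balb/c groups, taken 3 weeks after transfer. They had 50 ng of peptide per mouse, and 5 to 10 mice were pooled per array.

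Treg cells restrain immune responses, and their identity rests on the transcription factor Foxp3. Most form in the thymus, and others form in the periphery when conventional CD4+ T cells switch Foxp3 on. T cells placed in a host without lymphocytes divide and take on features of activated and memory cells, a process called homeostatic expansion. In lymph nodes, Treg cells that lack CD103 and Klrg1 are mostly resting and recirculating, while those that carry both molecules are activated effector Treg cells.

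Levels are given as log2 of the intensity that the authors computed with RMA. A difference is the mean of the group named first minus that of the second, with its standard error, from a limma model of all 23 arrays. A gene is said to be called, or to have risen or fallen, when its limma p, adjusted by Benjamini-Hochberg over 12516 genes, was under 0.05. These p-values measure the spread between pools of mice. In sorted pools of this kind, fewer cells of a type and less RNA per cell cannot be told apart.

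Array medians ran from 77.8 to 81.0 intensity units on homeostatic Foxp3+, from 77.9 to 80.8 on homeostatic Foxp3- and from 76.1 to 78.2 on LN CD103-Klrg1- arrays, and overlapped. Upper quartiles did not overlap between the systems: they ran from 208.1 to 217.0 units on homeostatic Foxp3+ and from 210.9 to 218.5 on homeostatic Foxp3- arrays, against 231.4 and 243.2 on LN CD103-Klrg1- arrays, and the part of this in the results was not tested. The excess of the 3′ over the 5′ Gapdh probe set, which grows as RNA is degraded, overlapped as well: it ran from 2.53 to 3.30, from 2.73 to 3.04 and from 2.80 to 3.01 on the log2 scale in the same order of groups. The T cell gene Cd3e was at 11.28, 11.47 and 11.40 on homeostatic Foxp3+ arrays against 11.59 and 11.86 on LN CD103-Klrg1- arrays. The converted arrays were below both resident ones, and the difference of -0.35 was not called (adjusted p = 0.536). Cd4 was at 9.59, 9.66 and 9.66 against 10.14 and 9.62, and overlapped.

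Markers of other cell types set the systems apart. Over all genes tested, 6.4% were called higher and 7.01% lower in homeostatic Foxp3+ than in LN CD103-Klrg1- cells. List counts in this comparison are to be read beside these shares. Of 33 tested myeloid and dendritic cell markers, 12 were called higher and 0 lower in homeostatic Foxp3+ than in LN CD103-Klrg1- cells, with a median difference of 1.06, against 0.028 over all genes tested. The array means of this list ran from 6.81 to 8.04 on homeostatic Foxp3+, from 7.32 to 8.56 on homeostatic Foxp3- and from 5.97 to 6.22 on LN CD103-Klrg1- arrays. Lyz2, the lysozyme of macrophages and neutrophils, had 9.43, 11.51 and 10.79 on homeostatic Foxp3+ arrays and 10.42, 12.26 and 11.03 on homeostatic Foxp3- arrays, against 7.12 and 7.42 on LN CD103-Klrg1- arrays. Replicate 2 was the highest and replicate 1 the lowest in both homeostatic groups, and the count of called myeloid markers was 5 without homeostatic Foxp3+ replicate 2, 5 without LN CD103-Klrg1- replicate 1 and 6 without LN CD103-Klrg1- replicate 2. The other 21 markers of the list were not called. Of 10 erythroid and platelet markers, 5 were called higher and 0 lower. Their array means ran from 6.56 to 7.93 on homeostatic Foxp3+, from 6.95 to 8.32 on homeostatic Foxp3- and from 5.98 to 5.99 on LN CD103-Klrg1- arrays. Leaving out homeostatic Foxp3+ replicate 2 or 3 left 3 erythroid calls, and leaving out LN CD103-Klrg1- replicate 1 or 2 left 2 and 1. Of 14 B cell markers, 5 were lower and 0 higher, and their array means were 6.66 to 6.79 and 6.59 to 6.75 in the homeostatic Foxp3+ and Foxp3- groups against 7.53 to 7.54 in the LN CD103-Klrg1- group. Ms4a1, which encodes CD20, had 6.71, 7.11 and 7.03 on homeostatic Foxp3+ arrays against 9.61 and 9.65 on LN CD103-Klrg1- arrays. Without LN CD103-Klrg1- replicate 1 or 2 the B cell calls numbered 2 and 3. The part of these other cells in the results that follow was not tested, and their genes are named where they appear.

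The test called 1678 genes between homeostatic Foxp3+ and LN CD103-Klrg1- cells, 13.4% of those tested: 801 were higher (6.4%) and 877 lower (7.01%). Of these, 1147 differed by at least 2-fold and 281 by at least 4-fold. In 400 of them the mean of the lower group lay under the level that a gene had to reach to be tested, 6.27, where background can hold up a value, so that their differences are lower bounds in size. The number called was 790 without LN CD103-Klrg1- replicate 1, 619 without LN CD103-Klrg1- replicate 2 and 1049 without homeostatic Foxp3+ replicate 2.

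Foxp3 and Il2ra, which encodes the alpha chain of the interleukin-2 receptor, were high in both Treg groups. Foxp3 was at 10.42, 10.35 and 10.49 on homeostatic Foxp3+ arrays and at 4.71, 4.81 and 4.77 on homeostatic Foxp3- arrays, against 10.62 and 10.08 on LN CD103-Klrg1- arrays. The sort for GFP fixed this pattern, and the converted arrays lay between the resident ones (0.07 ± 0.33 (SE), limma adjusted p = 0.92). Il2ra averaged 11.48 ± 0.13 (SD, n = 3) in homeostatic Foxp3+ cells and 11.22 ± 0.24 (SD, n = 2) in LN CD103-Klrg1- cells, a difference of 0.26 ± 0.35 that did not pass the test (adjusted p = 0.695). Both groups also held Ctla4, an inhibitory receptor (11.69 to 12.17 against 12.58 and 12.63), and Ikzf2, which encodes Helios (12.33 to 12.50 against 12.54 and 12.68), and neither was called.

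The converted cells differed sharply from LN CD103-Klrg1- cells in 3 effector genes and in a survival gene. Against resident LN CD103+Klrg1+ cells, given further below, Gzmb, Klrg1, Itgae and Bcl2 were not called. Gzmb, the protease granzyme B, was at 12.61, 12.05 and 12.58 on homeostatic Foxp3+ arrays and at 8.44, 8.89 and 8.42 on homeostatic Foxp3- arrays, against 6.45 and 6.31 on LN CD103-Klrg1- arrays. The 3 groups did not overlap, and the converted cells held 65.6 times the LN CD103-Klrg1- level (6.04 ± 0.29, adjusted p = 4.47e-10). That resident level lay close to the 6.27 a gene had to reach to be tested, where background can hold up a value. Klrg1, an inhibitory lectin-like receptor, had 14.01, 12.98 and 13.71 on homeostatic Foxp3+ arrays and 11.79, 10.59 and 11.28 on homeostatic Foxp3- arrays, against 7.53 and 7.69 on LN CD103-Klrg1- arrays. Itgae, the CD103 chain that binds E-cadherin, had 12.84, 12.94 and 13.06 on homeostatic Foxp3+ arrays and 9.94, 9.91 and 9.72 on homeostatic Foxp3- arrays, against 8.41 and 7.77 on LN CD103-Klrg1- arrays. Because the resident cells were sorted without CD103 and Klrg1, the size of these 2 differences (4.86 ± 0.56 for Itgae and 5.96 ± 0.37 for Klrg1) was set in part by the sort. Bcl2, which protects lymphocytes from apoptosis, went the other way: it was at 9.67, 9.79 and 10.27 on homeostatic Foxp3+ arrays and at 10.05, 10.46 and 10.88 on homeostatic Foxp3- arrays, against 12.79 and 13.21 on LN CD103-Klrg1- arrays. The fall in converted cells, 8.50-fold (-3.09 ± 0.46, adjusted p = 0.000217), appeared in all 5 Bcl2 probe sets, by between -1.23 and -3.09. Within the transfer system Gzmb, Klrg1 and Itgae were also higher in Foxp3+ than in Foxp3- cells (3.83 ± 0.26, 2.35 ± 0.34 and 3.09 ± 0.50, adjusted p from 5.31e-08 to 0.00168), whereas Bcl2 was not called between them (-0.56 ± 0.41).

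**Figure D1:**
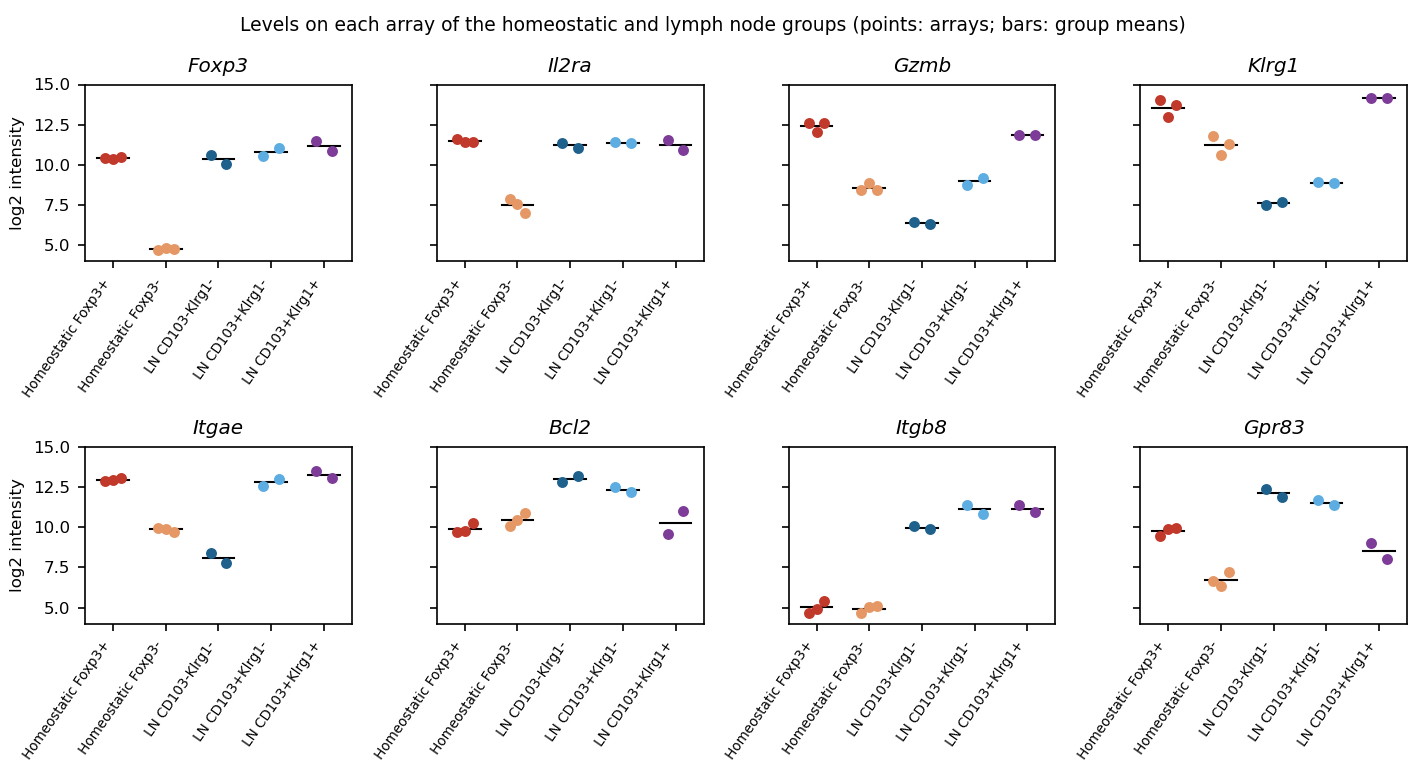
Levels of 8 genes on the homeostatic and lymph node arrays, in log2 intensity; points are arrays and bars are group means. Gzmb, Klrg1 and Itgae stand high on the 3 homeostatic Foxp3+ arrays and low on the 2 LN CD103-Klrg1- arrays, while Bcl2, Itgb8 and Gpr83 stand low on the homeostatic Foxp3+ arrays.

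Among 34 Treg signature genes, 8 were higher and 7 lower in homeostatic Foxp3+ than in LN CD103-Klrg1- cells. Their median difference was 0.12, where 6.4% of all genes tested were called higher and 7.01% lower. The higher members were Klrg1, Itgae, Gpr15, Lgals1, Ebi3, Penk, Fgl2 and Prdm1, and the lower ones Itgb8, Gpr83, Plagl1, Ecm1, Gata1, Ikzf4 and Swap70. Ebi3, a subunit of interleukin-35, had 9.88, 9.69 and 10.14 on homeostatic Foxp3+ arrays against 7.50 and 6.74 on LN CD103-Klrg1- arrays (2.78 ± 0.39, adjusted p = 0.000102). Gpr15, a receptor that guides T cells to the large intestine, had 11.64, 10.69 and 11.26 on homeostatic Foxp3+ arrays against 7.66 and 7.45 on LN CD103-Klrg1- arrays (3.65 ± 0.34, adjusted p = 1.48e-06). The largest fall was that of Itgb8, an integrin chain through which Treg cells activate TGF-beta. It was at 4.68, 4.93 and 5.42 on homeostatic Foxp3+ arrays and at 4.67, 5.03 and 5.07 on homeostatic Foxp3- arrays, against 10.07 and 9.86 on LN CD103-Klrg1- arrays. The converted cells were thus at the low level of Foxp3- cells, at least 31.0-fold below the resident ones (-4.96 ± 0.44, adjusted p = 9.22e-07). Gut Treg cells averaged 10.55 ± 0.04 (SD, n = 2) for Itgb8 and gut conventional T cells 4.09 ± 0.22 (SD, n = 2). Gpr83, an orphan receptor enriched in Treg cells, took a middle place: 9.47, 9.89 and 9.98 on homeostatic Foxp3+ arrays and 6.63, 6.37 and 7.22 on homeostatic Foxp3- arrays, against 12.37 and 11.85 on LN CD103-Klrg1- arrays. It fell by 2.33 ± 0.32 against the resident cells (adjusted p = 8.63e-05) and was 3.04 ± 0.29 above the Foxp3- cells (adjusted p = 4.64e-06). Plagl1, a zinc finger factor, had the same order, with 9.03, 9.94 and 9.16 on homeostatic Foxp3+ arrays and 7.01, 7.11 and 7.16 on homeostatic Foxp3- arrays, against 11.56 and 11.51 on LN CD103-Klrg1- arrays.

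Within the transfer system 16 of the 34 signature genes were higher and 0 lower in Foxp3+ than in Foxp3- cells, where 0.751% of all genes tested were called higher and 1.01% lower, and the median difference was 1.05. Between homeostatic Foxp3- and LN CD103-Klrg1- cells 6 were higher and 15 lower, with a median of -0.86, where 6.6% of genes were called higher and 6.14% lower. The comparisons share arrays, so these counts are given side by side only. The 19 signature genes that were not called between converted and resident cells are not shown to be alike in them. The list held 5 higher calls without LN CD103-Klrg1- replicate 2 and 4 lower calls without either LN CD103-Klrg1- array. Ikzf4, which encodes Eos, a partner of Foxp3, fell by 1.19 ± 0.38 (adjusted p = 0.0437) and lost its call whichever of the 5 arrays was left out (adjusted p from 0.0767 to 0.338).

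**Figure D2:**
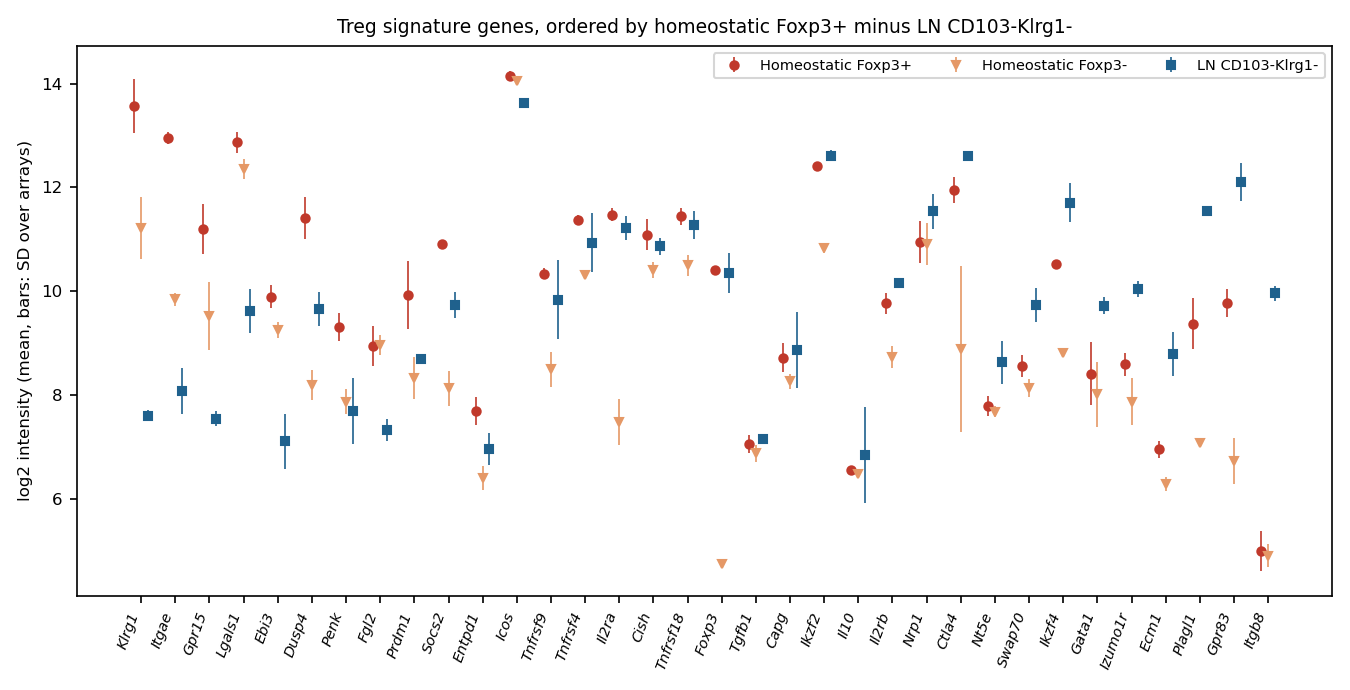
Mean log2 intensity of the 34 tested Treg signature genes in homeostatic Foxp3+, homeostatic Foxp3- and LN CD103-Klrg1- cells, ordered by the difference between homeostatic Foxp3+ and LN CD103-Klrg1- cells; bars are SD over arrays. Klrg1 and Itgae lie at the left, where the converted cells are above the resident ones, and Itgb8 and Gpr83 at the right, where they are below.

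Of 31 effector Treg genes tested, 18 were called higher and 0 lower in homeostatic Foxp3+ than in LN CD103-Klrg1- cells. Their median difference was 1.54, where 6.4% of all genes tested were called higher and 7.01% lower. The other 13 were not called, among them Il10 (-0.28), Pdcd1 (-1.32) and Irf4 (-0.27). Besides Gzmb, Klrg1 and Itgae, the genes called higher included the chemokine receptors Cxcr3 and Ccr2 and the factors Prdm1, Batf, Id2 and Bhlhe40. Also called higher were the cytokine subunit Ebi3, and Fgl2, annexins, S100 proteins and galectins. Cxcr3, which guides cells to inflamed tissue, had 12.59, 12.10 and 12.73 on homeostatic Foxp3+ arrays against 9.75 and 9.16 on LN CD103-Klrg1- arrays (3.02 ± 0.37, adjusted p = 2.91e-05). Between homeostatic Foxp3- and LN CD103-Klrg1- cells 19 of the 31 were higher and 1 lower, against 6.6% and 6.14% of all genes tested. Of the 18 rises in converted cells, 17 were marked as system-wide by the Foxp3- arrays. Over all genes, 480 of the 801 rises were marked, and both comparisons use the same LN arrays. Between Foxp3+ and Foxp3- cells of the transfer system 5 of the 31 rose and 2 fell, against 0.751% and 1.01% of all genes tested. With the replicate number as a random block 7 rose and 4 fell.

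Annexins, S100 proteins and galectins, calcium- and sugar-binding proteins typical of activated T cells and of myeloid cells, followed the same pattern. Of 20 tested, 10 were higher and 1 lower in the converted cells, where 6.4% of all genes were called higher and 7.01% lower. In homeostatic Foxp3- cells against LN CD103-Klrg1- cells 10 were higher and 1 lower, where the shares were 6.6% and 6.14%. Between the 2 homeostatic groups 0 were called by limma. Within the system 1 was higher and 3 were lower at an unadjusted p under 0.05, and with the replicate number as a random block Lgals3 and Lgals3bp were called lower in Foxp3+ cells (adjusted p = 0.0212 and 0.0383). S100a6 had 13.45, 13.25 and 13.29 on homeostatic Foxp3+ arrays and 12.55, 12.61 and 12.46 on homeostatic Foxp3- arrays, against 9.32 and 8.92 on LN CD103-Klrg1- arrays. Anxa1, a phospholipid-binding protein, had 11.09, 10.46 and 9.91 on homeostatic Foxp3+ arrays and 11.33, 11.26 and 10.34 on homeostatic Foxp3- arrays, against 6.31 and 6.51 on LN CD103-Klrg1- arrays. S100a8 and S100a9, which neutrophils make in quantity, also rose, by 4.20 ± 0.55 and 3.94 ± 0.46. Their levels on homeostatic Foxp3+ arrays, 7.74, 10.25 and 8.80 for S100a8, had the array order of Lyz2, and the part of myeloid RNA in them was not tested.

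Unlike Gzmb, Gzma was lower in converted than in Foxp3- cells of the transfer system, and Gzmk was not called between them. List counts here stand beside 6.4% of all genes tested that were called higher and 7.01% lower. Of 15 cytotoxic granule genes tested, 6 were higher and 0 lower in homeostatic Foxp3+ than in LN CD103-Klrg1- cells, with a median of 0.53. Markers of CD8 T and natural killer cells moved with them: of 13 tested, 5 were called higher and 0 lower, namely Gzma itself, Eomes, Klrk1, Fcgr3 and Tyrobp. Their array means were 6.23, 7.09 and 6.58 on homeostatic Foxp3+ arrays and 6.93 to 7.45 on homeostatic Foxp3- arrays, against 5.61 and 5.80 on LN CD103-Klrg1- arrays, and 2 of the calls were left without homeostatic Foxp3+ replicate 2 or either LN CD103-Klrg1- array. Among converted arrays replicate 2 was the highest and replicate 1 the lowest, which is also the order of Gzma, itself a member of this list. Fcgr3 and Tyrobp belong to the myeloid list too. The part of CD8 T, natural killer or myeloid cells in the granule genes was not tested. Gzma had 9.10, 11.03 and 9.91 on homeostatic Foxp3+ arrays and 12.02, 12.03 and 12.01 on homeostatic Foxp3- arrays, against 5.87 and 6.44 on LN CD103-Klrg1- arrays. Gzma was called in all 3 comparisons, up against the resident cells (3.86 ± 0.39) and down against the Foxp3- cells (-2.01 ± 0.35, adjusted p = 0.00292). Gzmk had 10.40, 9.39 and 10.23 on homeostatic Foxp3+ arrays and 11.58, 9.86 and 11.13 on homeostatic Foxp3- arrays, against 6.11 and 6.11 on LN CD103-Klrg1- arrays. Nkg7, a granule membrane protein, rose by 2.94 ± 0.44, and Prf1, the pore-forming partner of the granzymes, differed by 0.018 and was not called. Of the granzymes named here, Gzmb was the one higher in the Foxp3+ than in the Foxp3- cells of the transfer system.

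Receptors for migration and recognition moved in both directions, where 6.4% of all genes tested were called higher and 7.01% lower. Of 20 chemokine and homing receptors, 7 were higher and 1 lower in converted than in resident cells, and both counts fell without LN CD103-Klrg1- replicate 1 or 2, to 4 higher in each case. Ccr2, a receptor for inflammatory chemokines, had 10.14, 10.32 and 10.95 on homeostatic Foxp3+ arrays against 7.71 and 7.76 on LN CD103-Klrg1- arrays. Ccr7 and S1pr1, which keep T cells moving through lymph nodes, differed by -0.16 and -0.59 and were not called. Of 15 integrin chains, Itgae was higher and Itga4, Itga6 and Itgb8 were lower. Itga4, a chain of gut and tissue homing integrins, had 8.96, 9.74 and 9.16 on homeostatic Foxp3+ arrays against 11.32 and 11.41 on LN CD103-Klrg1- arrays (-2.08 ± 0.33, adjusted p = 0.000412). Of 8 killer lectin receptors tested, 5 were higher, and Klrg1 alone of them kept a level above 10 on each converted array. Their count was 1 without homeostatic Foxp3+ replicate 2 or without LN CD103-Klrg1- replicate 1, and 2 without LN CD103-Klrg1- replicate 2. Their array means were 5.73, 6.29 and 5.91 on homeostatic Foxp3+ arrays and 6.10 to 6.47 on homeostatic Foxp3- arrays, against 4.88 and 5.01 on LN CD103-Klrg1- arrays, in the array order of the CD8 T and natural killer cell markers given above. Klrd1, Klre1 and Klrk1 belong to both lists, and the part of such cells was not tested.

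**Figure D3:**
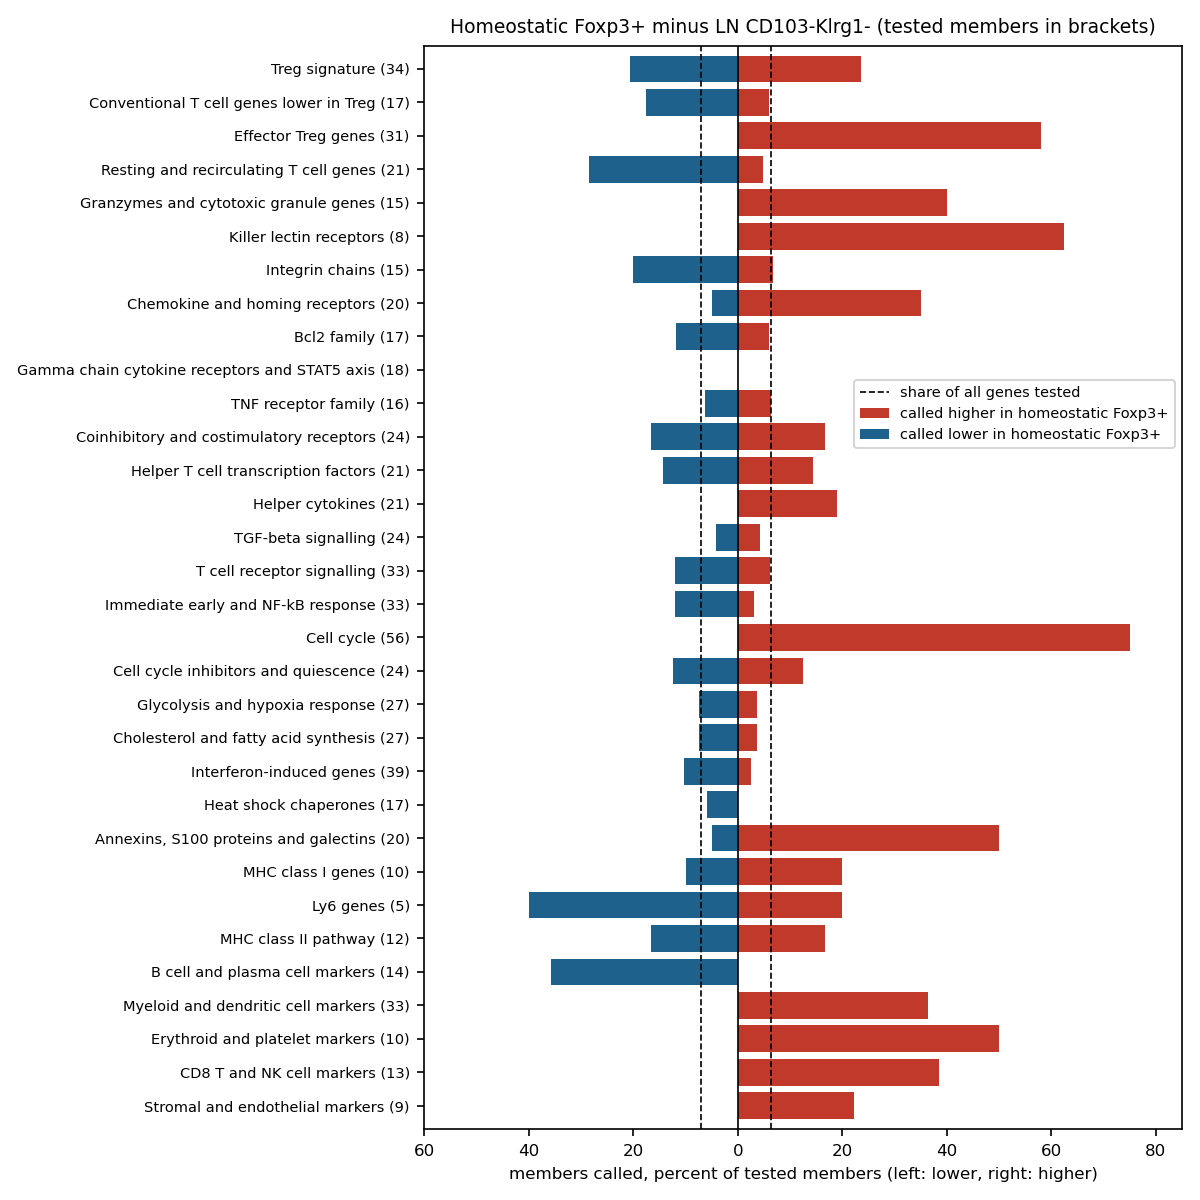
Share of the tested members of each of 32 gene lists that were called higher (right) or lower (left) in homeostatic Foxp3+ than in LN CD103-Klrg1- cells; dashed lines mark the shares over all genes tested, 6.4% and 7.01%. The cell cycle, killer lectin receptor and effector Treg lists reach farthest to the right, and 0 of the 18 gamma chain receptor and STAT5 genes were called.

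Cell cycle genes formed the largest block of rises, where 6.4% of all genes tested were called higher and 7.01% lower. Of 56 tested, 42 were higher and 0 lower in homeostatic Foxp3+ than in LN CD103-Klrg1- cells, with a median difference of 1.72. They covered DNA synthesis (Mcm2, Mcm3, Mcm7, Rrm1, Rrm2, Tk1, Cdc6), cyclins and their kinase (Ccne1, Ccne2, Ccna2, Ccnb2, Cdk1) and mitosis (Plk1, Aurka, Bub1, Cdc20, Birc5, Top2a, Kif20a), and their differences ran from 0.72 to 3.79. The array means of the list were 9.66 to 9.82 on homeostatic Foxp3+ and 9.02 to 9.42 on homeostatic Foxp3- arrays, against 8.44 and 7.58 on LN CD103-Klrg1- arrays. The 2 resident arrays differed from each other in these genes, and the count was 21 without LN CD103-Klrg1- replicate 2. Ube2c, which helps to destroy mitotic cyclins, had 9.14, 9.47 and 9.51 on homeostatic Foxp3+ arrays and 8.10, 9.12 and 8.38 on homeostatic Foxp3- arrays, against 6.30 and 4.86 on LN CD103-Klrg1- arrays. Prc1, a crosslinker of spindle microtubules, had 10.58, 10.73 and 10.63 on homeostatic Foxp3+ arrays and 9.69, 10.19 and 9.67 on homeostatic Foxp3- arrays, against 8.12 and 7.37 on LN CD103-Klrg1- arrays. The rises of Ube2c (3.79 ± 0.48), Prc1 (2.90 ± 0.26), the spindle motor Kif11 (2.74 ± 0.33) and the mitotic kinase Aurkb (2.72 ± 0.36) had adjusted p from 1.21e-06 to 5.59e-05.

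In homeostatic Foxp3- cells 22 of the 56 were higher and 0 lower than in LN CD103-Klrg1- cells, with a median of 1.08. For this comparison 6.6% of all genes tested were called higher and 6.14% lower. Between homeostatic Foxp3+ and Foxp3- cells 0 of the 56 were called by limma, with a median of 0.64 (where -0.027 was the median of all genes), and 16 were higher and 0 lower at an unadjusted p under 0.05. With the replicate number as a random block, 5 were called higher in Foxp3+ cells: Aurkb, Bub1, Cdc25c, Plk4 and Prc1 (adjusted p from 0.00805 to 0.0277). The array means of the list were above those of the same-numbered Foxp3- array in all 3 pairs, at 9.79, 9.66 and 9.82 on homeostatic Foxp3+ and 9.02, 9.42 and 9.05 on homeostatic Foxp3- arrays. Against LN CD103+Klrg1+ effector Treg cells 32 were higher and 0 lower in the converted cells, where 4.35% of genes were called higher and 6.46% lower. Inhibitors of the cycle were mixed: of 24, 3 rose (Cdkn1a, Cdkn2b and Cdkn2c) and 3 fell (Foxo1, Foxp1 and Tsc1). Cdkn1a, which encodes p21, had 9.67, 9.19 and 9.44 on homeostatic Foxp3+ arrays against 7.10 and 7.18 on LN CD103-Klrg1- arrays.

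**Figure D4:**
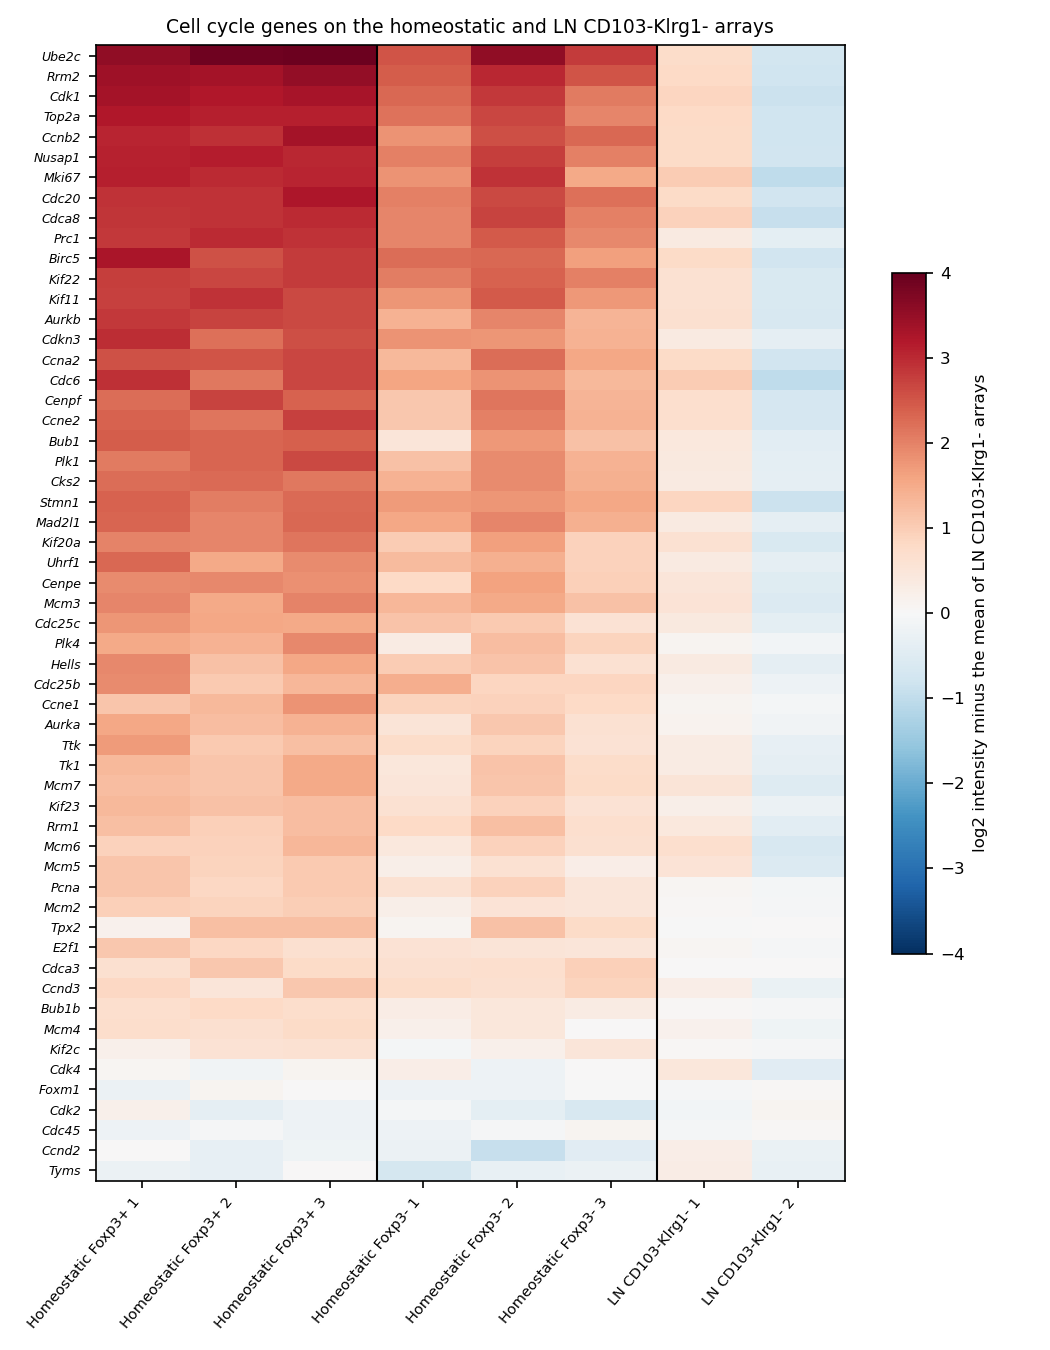
The 56 tested cell cycle genes on the homeostatic and LN CD103-Klrg1- arrays; colour is log2 intensity minus the mean of the LN CD103-Klrg1- arrays. The homeostatic Foxp3+ arrays are the darkest red, the homeostatic Foxp3- arrays are paler, and LN CD103-Klrg1- replicate 2 is below replicate 1 in most of the genes with large rises.

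Many promoters of mitotic genes carry a cell cycle homology region, TTTGAA, downstream of CCAAT boxes, through which they are silenced in resting cells and switched on in dividing ones. Both motifs were searched on both strands in the RefSeq promoter windows (GRCm38.p6, C57BL/6J sequence, 250 bases before to 50 after the start), after the rise of the cell cycle genes had been seen. Of the 42 called cell cycle genes 36 had a window. A gene counted when any of its windows held the motif. TTTGAA was in 19 of the 36 (52.8%), against 20.2% of all 27025 genes with a window and 14.6% of tested genes with one. CCAAT was in 27 of the 36, against 41.1% of all genes with a window. Over the whole cell cycle list, called or not, TTTGAA was in 21 of 47 genes with a window (44.7%) and CCAAT in 35 (74.5%). These shares thus describe cell cycle genes, and nothing is read from them about the rise. Windows of 3 genes named above are shown with the matches in capitals: TTTGAA or its complement TTCAAA, and CCAAT or its complement ATTGG, which can overlap each other on opposite strands. They lie at chr2:164769679-164769978 (Ube2c), chr7:80294201-80294500 (the first of 2 Prc1 windows) and chr19:37376132-37376431 (Kif11), each on the plus strand.
Ube2c: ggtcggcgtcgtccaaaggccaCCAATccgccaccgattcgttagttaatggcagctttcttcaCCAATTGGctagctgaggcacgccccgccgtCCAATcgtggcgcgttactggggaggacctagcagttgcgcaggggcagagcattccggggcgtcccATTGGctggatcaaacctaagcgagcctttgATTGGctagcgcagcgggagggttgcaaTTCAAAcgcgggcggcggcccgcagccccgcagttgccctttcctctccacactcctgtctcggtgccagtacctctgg
Prc1: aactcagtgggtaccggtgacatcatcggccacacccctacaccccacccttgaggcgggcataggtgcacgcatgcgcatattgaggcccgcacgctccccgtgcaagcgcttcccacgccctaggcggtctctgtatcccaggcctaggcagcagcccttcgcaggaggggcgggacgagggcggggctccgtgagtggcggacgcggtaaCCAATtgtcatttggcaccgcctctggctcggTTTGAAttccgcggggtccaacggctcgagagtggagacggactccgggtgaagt
Kif11: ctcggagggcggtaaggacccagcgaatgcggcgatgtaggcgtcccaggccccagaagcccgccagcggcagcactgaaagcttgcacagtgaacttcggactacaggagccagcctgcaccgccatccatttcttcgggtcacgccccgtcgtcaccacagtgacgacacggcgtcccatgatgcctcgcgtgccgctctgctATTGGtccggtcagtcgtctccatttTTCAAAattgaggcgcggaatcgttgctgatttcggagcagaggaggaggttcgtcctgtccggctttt
Each of the 3 windows holds TTTGAA once, within the 100 bases around the start, and CCAAT at least once before it. The window of Gzmb, the effector gene with the largest rise, is shown for contrast. It lies on the minus strand at chr14:56262285-56262584 and holds neither motif, but 1 match to TTCNNNGAA (capitals). These are the letters bound by STAT5, a factor activated by interleukin-2, and 9.55% of all genes with a window hold them.
Gzmb: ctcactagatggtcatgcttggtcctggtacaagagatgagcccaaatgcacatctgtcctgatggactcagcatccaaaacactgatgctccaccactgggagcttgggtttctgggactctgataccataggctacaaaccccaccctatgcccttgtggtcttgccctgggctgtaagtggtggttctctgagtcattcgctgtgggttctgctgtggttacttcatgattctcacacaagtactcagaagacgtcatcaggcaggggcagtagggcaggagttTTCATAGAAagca
A match describes the letters of a window and no more.

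Homeostatic expansion is known to depend on genes of survival and of cytokine response. Of all genes tested 13.4% were called, 6.4% higher and 7.01% lower. Of 17 Bcl2 family genes, Bcl2 and the pro-apoptotic Bmf were lower and the pro-apoptotic Pmaip1 was higher. Mcl1 and Bcl2l1, which encode the other main protective members, differed by -0.25 and -0.14 and were not called. Pmaip1 rose by 2.27 ± 0.58 (adjusted p = 0.0142) and lost its call without homeostatic Foxp3+ replicate 1 or without either LN CD103-Klrg1- array (adjusted p from 0.0561 to 0.1). Bmf fell by 0.95 ± 0.25 and lost its call without homeostatic Foxp3+ replicate 3 or either LN CD103-Klrg1- array (adjusted p from 0.0687 to 0.125). Of 18 genes of the gamma chain cytokine receptors and the STAT5 axis, 0 were called by limma, with a median difference of 0.007; at an unadjusted p under 0.05, 1 was higher and 2 were lower. Over the alternative settings 0 to 4 were called higher and 0 to 3 lower, and genes not called are not shown to be alike in both groups. Socs2, a feedback inhibitor that STAT5 induces, was at 10.90, 10.94 and 10.89 on homeostatic Foxp3+ arrays and at 8.07, 8.51 and 7.84 on homeostatic Foxp3- arrays, against 9.93 and 9.56 on LN CD103-Klrg1- arrays. It was 2.78 ± 0.38 higher in the converted than in the Foxp3- cells (adjusted p = 0.000329), and against the resident cells its difference of 1.17 ± 0.42 did not pass (adjusted p = 0.0771).

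Of 33 T cell receptor signalling genes, 2 rose (Themis and Trat1) and 4 fell (Ubash3a, Ubash3b, Cblb and Ptpn22), with a median of -0.35, where 7.01% of all genes were called lower. The array means of this list were 10.10 to 10.36 on homeostatic Foxp3+ arrays against 10.57 and 10.67 on LN CD103-Klrg1- arrays. The 4 that fell code for known brakes on receptor signals. Their count was 1 without homeostatic Foxp3+ replicate 2 or either LN CD103-Klrg1- array, and 2 without homeostatic Foxp3+ replicate 3, and the falls in the list numbered 1 to 12 over all settings. Ubash3a, a phosphatase-like inhibitor of the receptor, had 6.14, 5.75 and 6.93 on homeostatic Foxp3+ arrays and 5.89, 6.21 and 7.09 on homeostatic Foxp3- arrays, against 9.35 and 9.29 on LN CD103-Klrg1- arrays (-3.05 ± 0.43, adjusted p = 0.000108). Of 33 immediate early and NF-kB response genes, Ier3 rose and Egr2, Egr3, Nr4a3 and Myc fell, with a median of 0.002. The falls numbered 1 to 6 over all settings, 2 without homeostatic Foxp3+ replicate 1 or LN CD103-Klrg1- replicate 2 and 1 without LN CD103-Klrg1- replicate 1. Egr2, a factor induced by receptor signals that limits activation, had 7.14, 7.46 and 7.72 on homeostatic Foxp3+ arrays and 9.85, 9.27 and 9.65 on homeostatic Foxp3- arrays, against 10.49 and 9.91 on LN CD103-Klrg1- arrays. The converted cells were the low group, and Egr2 was called against both (-2.76 ± 0.34 and -2.15 ± 0.31). Egr3 fell by 1.88 ± 0.57 and lost its call whichever of the 5 arrays was left out (adjusted p from 0.0556 to 0.213).

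Transcription factors and cytokines of helper T cells differed in single members, where 6.4% of all genes tested were called higher and 7.01% lower. Of 21 factors, Eomes, Runx3 and Batf rose, and Bcl6, Runx1 and Ikzf4 fell. Eomes, a T-box factor of cytotoxic and memory cells, was high in both homeostatic groups, at 10.21, 10.55 and 10.56 on Foxp3+ and 11.06, 10.48 and 10.64 on Foxp3- arrays, against 7.11 and 7.43 on LN CD103-Klrg1- arrays. Bcl6, the factor of follicular helper cells, was low in the converted cells only among these 3 groups: 6.69, 7.05 and 6.89 on homeostatic Foxp3+ arrays and 8.73, 8.61 and 8.21 on homeostatic Foxp3- arrays, against 8.38 and 8.42 on LN CD103-Klrg1- arrays. It was 1.53 ± 0.34 below the resident cells and lost that call without LN CD103-Klrg1- replicate 1 (adjusted p = 0.0503) or 2 (adjusted p = 0.0659). Of 21 cytokine genes, Ebi3, Ifng, Ccl5 and Il24 rose and 0 fell; 2 remained called without homeostatic Foxp3+ replicate 2 or 3 or LN CD103-Klrg1- replicate 1, and 1 without LN CD103-Klrg1- replicate 2. Ifng, the cytokine of Th1 cells, had 10.21, 10.42 and 9.35 on homeostatic Foxp3+ arrays and 10.75, 10.57 and 9.68 on homeostatic Foxp3- arrays, against 8.27 and 7.95 on LN CD103-Klrg1- arrays (adjusted p = 0.00262, and 0.0523 without LN CD103-Klrg1- replicate 2). Ccl5, a chemokine of effector T cells, had 9.41, 11.91 and 10.96 on homeostatic Foxp3+ arrays and 13.25, 12.85 and 13.19 on homeostatic Foxp3- arrays, against 8.66 and 9.34 on LN CD103-Klrg1- arrays. Ccl5 and Gzma thus had the array order of Lyz2 in the converted cells but not in the homeostatic Foxp3- cells. There Ccl5 was lowest on replicate 2, where Lyz2 was highest, and Gzma was nearly level. The part of this relation in their values was not tested. The call of Ccl5 was lost without homeostatic Foxp3+ replicate 2 or 3 or either LN CD103-Klrg1- array (adjusted p from 0.103 to 0.283).

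The homeostatic Foxp3- cells served to mark differences from the resident cells that they shared with the converted cells. They differed from LN CD103-Klrg1- cells in 1595 genes (12.7% of those tested), and 1072 of the 1678 genes called in the converted cells (63.9%) were called there in the same direction, 480 higher (3.84% of all genes tested) and 592 lower (4.73%), or 8.57% together. Both comparisons use the same LN arrays, so the overlap was to be counted and not tested. The other 606 genes were not marked. Homeostatic Foxp3- cells also differ from the resident cells in Foxp3 status, so a mark alone does not assign a gene to the transfer system. Of the 34 Treg signature genes, 13 were marked. In 1208 of the 1678 genes the 2 homeostatic groups differed by under 0.5. The marked genes with the largest rises and a small difference within the system were Zfp979, a zinc finger gene, Ifitm2 and Ifitm6, members of a family of antiviral membrane proteins, Anxa1, S100a4, Scpep1, Ap1s3, Alox5ap, Asf1b and Eomes. Zfp979 lay at 9.26, 8.71 and 9.33 on homeostatic Foxp3+ arrays and 8.56, 8.79 and 8.91 on homeostatic Foxp3- arrays, against 2.94 and 3.20 on LN CD103-Klrg1- arrays. Ifitm2 lay at 10.55, 10.92 and 10.93 on homeostatic Foxp3+ arrays and 11.22, 10.73 and 11.09 on homeostatic Foxp3- arrays, against 5.59 and 5.23 on LN CD103-Klrg1- arrays. Ifitm1 and Ifitm3 rose too, by 4.43 ± 0.29 and 4.30 ± 0.44. Ear3, Chil3 and Ccl6, genes known from myeloid cells, and Apol11b were among the 12 largest rises of named genes. They were lower on replicate 1 than on replicate 2 in both homeostatic groups, as Lyz2 was. Ear3 had 8.81, 10.40 and 9.33 on homeostatic Foxp3+ arrays against 3.31 and 3.20 on LN CD103-Klrg1- arrays.

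The largest falls of named genes were marked too. Trim12c, a gene of the TRIM family of antiviral factors, was at 3.76, 4.21 and 4.09 on homeostatic Foxp3+ arrays and at 3.97, 4.03 and 4.06 on homeostatic Foxp3- arrays, against 11.08 and 11.17 on LN CD103-Klrg1- arrays. Its neighbour in name, Trim12a, had 3.32, 3.08 and 3.36 on homeostatic Foxp3+ arrays against 8.52 and 8.06 on LN CD103-Klrg1- arrays. Ifi213, an interferon-inducible gene, had 6.27, 5.68 and 5.52 on homeostatic Foxp3+ arrays against 11.27 and 11.63 on LN CD103-Klrg1- arrays. These genes have close relatives, so probes may be shared between copies or differ between strains. Slc15a2, a peptide transporter, fell by 5.72 ± 0.50 by the probe set used, but a dimmer second one gave 0.35. Of 57 called named genes with another bright probe set, 11 had one of opposite sign.

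Arrays of one strain stood apart from those of another in many of the marked genes. Of the 1072 genes marked, 281 (26.2%) were higher on all 6 NOD arrays than on all 10 C57BL/6 arrays of lymph node and gut cells, and 327 (30.5%) were lower. Over all 1678 called genes these shares were 22.9% and 25.3%, and over all genes tested 8.17% and 7.84%. The marked genes were chosen for a difference between NOD and C57BL/6 lymph node arrays, which the pattern uses too, so the choice fixed a share above that of all genes and nothing is read from it. Trim12c, for one, averaged 10.63 in gut Treg and 10.55 in gut conventional cells of C57BL/6 mice. All NOD arrays are also the arrays of transferred BDC2.5 cells, so strain and transfer cannot be told apart by this pattern.

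**Figure D5:**
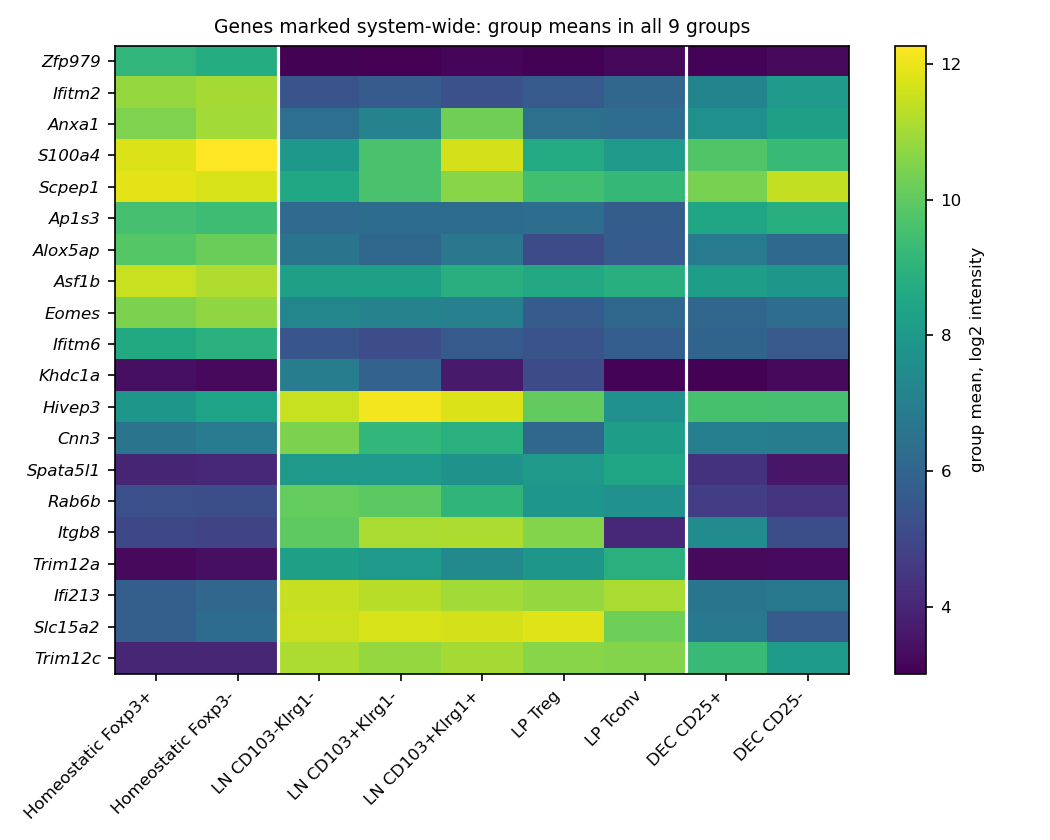
Group means in log2 intensity of the 10 largest rises and 10 largest falls that were marked system-wide and differed by under 0.5 between the 2 homeostatic groups, in all 9 groups of the study. White lines part the NOD, C57BL/6 and Balb/c groups; Trim12a and Spata5l1 are low in NOD and Balb/c groups alike, and Zfp979 and Ifitm6 are high in the NOD groups.

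The difference between the 2 homeostatic groups holds strain, transgene, host and tissue constant. It gave 220 called genes, 1.76% of those tested, and 468 with the replicate number as a random block, which has backing here because same-numbered arrays deviated together. A total of 73 genes (0.583% of those tested) were called in the same direction against both LN CD103-Klrg1- and homeostatic Foxp3- cells, 42 higher and 31 lower; with the block there were 141. Of the 73, 55 were not marked system-wide and 18 were, although these 18 also differed between the 2 homeostatic groups. Both comparisons use the converted arrays. The largest rises against both were Gzmb, Klrg1, Itgae, Rassf4, Nxpe4, Gpr15, Irak1bp1, Procr, Ptgr1 and Arnt2. Nxpe4 was at 8.91, 8.90 and 9.11 on homeostatic Foxp3+ arrays and at 4.89, 6.38 and 5.57 on homeostatic Foxp3- arrays, against 4.82 and 5.28 on LN CD103-Klrg1- arrays. It was at least 3.93 ± 0.43 above the resident cells (adjusted p = 7.54e-06) and 3.36 ± 0.38 above the Foxp3- cells (adjusted p = 4.22e-05). Procr, the receptor of activated protein C, had 8.39, 8.29 and 8.09 on homeostatic Foxp3+ arrays and 6.03, 6.91 and 6.14 on homeostatic Foxp3- arrays, against 5.41 and 5.56 on LN CD103-Klrg1- arrays. Both genes were high in the converted cells alone among these 3 groups.

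The largest falls against both were Btbd11, Matn2, Lrig1, Nsg2, P2rx7, Dzip1, Egr2, Phactr2, Gpm6b and Pou2af1. P2rx7, an ATP-gated channel that makes T cells sensitive to death by extracellular nucleotides, was at 6.67, 7.25 and 6.95 on homeostatic Foxp3+ arrays and at 8.72, 8.17 and 8.59 on homeostatic Foxp3- arrays, against 10.26 and 10.09 on LN CD103-Klrg1- arrays. Lrig1, a membrane protein that restrains growth factor receptors, had 7.50, 7.72 and 7.38 on homeostatic Foxp3+ arrays and 9.21, 8.63 and 8.85 on homeostatic Foxp3- arrays, against 10.84 and 11.23 on LN CD103-Klrg1- arrays. Nsg2, a vesicle protein known from neurons, had 8.34, 8.63 and 8.69 on homeostatic Foxp3+ arrays and 10.87, 10.60 and 11.04 on homeostatic Foxp3- arrays, against 11.99 and 11.56 on LN CD103-Klrg1- arrays. In these 3 genes the 3 groups did not overlap and the converted cells were lowest. Gpm6b fell by 2.71 ± 0.78 but lost its call without homeostatic Foxp3+ replicate 1 or 3 or either LN CD103-Klrg1- array (adjusted p from 0.0534 to 0.193).

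Coinhibitory and costimulatory receptors were balanced, with 4 of 24 higher (Havcr2, Slamf6, Pdcd1lg2 and Cd80) and 4 lower (Cd96, Cd200, Cd200r1 and Cd86). Of all genes tested 6.4% were called higher and 7.01% lower. The lower count of these receptors was 1 and 2 without LN CD103-Klrg1- replicate 1 and 2. Havcr2, which encodes the inhibitory receptor Tim-3, had 7.10, 5.59 and 6.72 on homeostatic Foxp3+ arrays against 4.57 and 4.74 on LN CD103-Klrg1- arrays. Cd96, a receptor for nectins, was the reverse, at 8.85, 9.20 and 9.01 on homeostatic Foxp3+ arrays and at 10.83, 10.69 and 10.80 on homeostatic Foxp3- arrays, against 10.78 and 10.34 on LN CD103-Klrg1- arrays. It was below both the resident (-1.54 ± 0.26, adjusted p = 0.000542) and the Foxp3- cells (-1.75 ± 0.23, adjusted p = 0.0002). Genes of resting and recirculating T cells gave 6 falls and 1 rise of 21, with a median of -0.33. Foxp1, a factor that keeps T cells quiescent, was at 10.71, 10.47 and 10.47 on homeostatic Foxp3+ arrays against 11.89 and 11.98 on LN CD103-Klrg1- arrays. The falls in this list depended on single arrays: 3 were called without homeostatic Foxp3+ replicate 1, 1 without LN CD103-Klrg1- replicate 1 and 0 without LN CD103-Klrg1- replicate 2, where Foxp1 had an adjusted p of 0.0725.

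Set against LN CD103+Klrg1+ cells (2 arrays, 4 to 6 C57BL/6-Foxp3/GFP mice each), the resident Treg cells that carry both markers, the converted cells differed in 1353 genes (10.8%). Gzmb averaged 12.42 ± 0.32 (SD, n = 3) in homeostatic Foxp3+ and 11.86 ± 0.03 (SD, n = 2) in LN CD103+Klrg1+ cells, and this difference of 0.56 did not pass the test (adjusted p = 0.229). Klrg1, Itgae and Bcl2 differed by -0.60, -0.32 and -0.36 and were not called either. Of the 31 effector Treg genes, 3 were higher and 8 lower than in LN CD103+Klrg1+ cells, against 4.35% and 6.46% of all genes tested. Itgb8 fell there too, by 6.13. The largest rises and falls against this subset included Ear3, Zfp979, Apol11b, Ifitm2, Esm1 and Ifitm3, and Trim12c, Itgb8, Slc15a2, Cd200r4, Matn2 and Ifi213. All 12 of these carried the system-wide mark, which rests on LN CD103-Klrg1- and not on LN CD103+Klrg1+ arrays. Matn2 was also lower in homeostatic Foxp3+ than in homeostatic Foxp3- cells (-1.84, limma adjusted p = 0.00074).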

How the data were processed

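Mouse CD4+ T cells were sorted and their RNA was isolated with Trizol, amplified in 2 rounds with the MessageAmp kit and hybridised to Affymetrix M430v2 arrays, per the labels. The authors deposited intensity values, made with RMA in GenePattern, per the labels; its version is not given in the sources used here. They are on a linear scale and log2 was taken with no pseudocount.

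The platform annotation named 34945 of 45101 probe sets by 1 symbol, 932 by several and 9160 by none; 64 controls and the last 2 kinds were left out. The probe set with the highest mean stood for each of 18193 genes, of which 9010 had several. Genes with a group mean above 77.0 intensity units (6.27 on the log2 scale), the median of all values, were tested: 12516 genes. A mean per group was fitted to all 23 arrays in 9 groups with limma 3.58.1 in R 4.3.3 (14 residual degrees of freedom, 3.48 from the prior), with two-sided tests and Benjamini-Hochberg adjustment in each comparison at 0.05. Python 3.11.15, pandas 2.3.3, numpy 2.4.6 and matplotlib 3.10.9 made tables and figures. The fit was tested on simulated data for homeostatic Foxp3+ minus LN CD103-Klrg1- cells: over 12516 genes, it recovered 43 of 100 changes of 1 and 88 of 100 of 2 on the log2 scale, with 10 false calls. The simulated arrays were independent and a gene had the same spread on all of them. In the data array weights ran from 0.133 (DEC CD25- replicate 3) to 4.557 (homeostatic Foxp3+ replicate 3). The counts hold for the simulated setting only.

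A gene was marked system-wide when called in the same direction in homeostatic Foxp3- minus LN CD103-Klrg1- cells. Named were the sort and given markers, the 12 largest rises and falls, the 10 largest each way against both groups and among marked genes differing by under 0.5 within the system, the 6 largest each way against LN CD103+Klrg1+ cells, and up to 4 members of each of 32 lists by p; other list members are named as part of their list. Members and lists were chosen with earlier results of these data known. Same-number homeostatic arrays deviated together (correlations across genes of 0.661, 0.58 and 0.486), so the numbers were taken as pairs there; the labels do not settle this. Homeostatic Foxp3+ and LN CD103-Klrg1- arrays share 2 numbers only (-0.001 and 0.146). No scan dates are given, so no batch by date could be looked for. Promoter windows are RefSeq's.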

Additional observations from a re-analysis of the deposited data

Results flagged for a closer look

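Of the 1678 genes called between homeostatic Foxp3+ and LN CD103-Klrg1- cells, 4 were called in the opposite direction between homeostatic Foxp3- and LN CD103-Klrg1- cells, and the difference between these effects, which is the difference between the 2 homeostatic groups, passed the limma test in each. Neb, which encodes the actin-binding protein nebulin, was at 8.92, 8.64 and 8.87 on homeostatic Foxp3+ arrays and between 4.67 and 5.27 on homeostatic Foxp3- arrays, against 6.64 and 6.63 on LN CD103-Klrg1- arrays; the homeostatic groups differed by 3.928 (adjusted p = 3.39e-08). Tnfsf14, the costimulatory ligand LIGHT, was at 4.75, 4.74 and 4.87 on homeostatic Foxp3+ arrays and at 9.30, 8.21 and 8.49 on homeostatic Foxp3- arrays, against 6.14 and 5.68 on LN CD103-Klrg1- arrays, a difference of -3.879 within the system (adjusted p = 5.31e-08). Pde7a, a phosphodiesterase that breaks down cyclic AMP, was at 7.82, 8.20 and 7.72 on homeostatic Foxp3+ arrays and at 11.02, 10.67 and 10.76 on homeostatic Foxp3- arrays, against 8.91 and 8.91 on LN CD103-Klrg1- arrays (-2.907, adjusted p = 5.31e-07). Asap1, an Arf GTPase-activating protein, was at 9.09, 9.41 and 9.46 on homeostatic Foxp3+ arrays and at 11.23, 11.17 and 11.24 on homeostatic Foxp3- arrays, against 10.30 and 9.98 on LN CD103-Klrg1- arrays (-1.895, adjusted p = 0.000109). In all 4 genes the resident cells lay between the 2 homeostatic groups. Outlying arrays were not looked for, since the groups hold 2 or 3 arrays.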

How the results depend on the processing

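The numbers of called genes depended on which arrays set the spread. Homeostatic Foxp3+ minus LN CD103-Klrg1- cells gave 4559 genes with array weights, 4249 with the homeostatic and lymph node groups only, 3845 with the arrays of the 2 groups alone, and 619 to 1268 without 1 array. Homeostatic Foxp3- minus LN CD103-Klrg1- cells gave 4467, 4080, 3469 and 608 to 1208 under the same settings. Homeostatic Foxp3+ minus Foxp3- cells gave 1236, 688, 741 and 133 to 173. Homeostatic Foxp3+ minus LN CD103+Klrg1+ cells gave 4072, 3979, 3400 and 514 to 1092. Genes marked system-wide numbered 3335, 3080, 2658 and 377 to 903, and genes called against both groups 544, 291, 328 and 41 to 58. Without the 2 dim DEC CD25- arrays, an alternative chosen after seeing the data, these 6 counts were 2859, 2757, 435, 2570, 1966 and 160. A floor at background gave 118 genes against both groups. Of the 1678 genes called, 1676 were also called with array weights in the same direction, and 1455 after quantile normalization.

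With the replicate number as a fixed replicate block the counts were 1968, 1932, 292, 1694, 1334 and 98, within 1.5 times of the reported ones. A random replicate block within each system, chosen after seeing the data, gave 468 genes between the homeostatic groups and 141 against both, and moved no other of these counts by over 1.5 times. Homeostatic Foxp3+ and LN CD103-Klrg1- arrays share only a number, and the block has no backing there. The split of higher and lower calls moved by under 10 percentage points with quantile and loess normalization.

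Among the 151 named genes, Foxp3 ran from -0.205 to 0.34 without 1 array and changed sign without LN CD103-Klrg1- replicate 2 (adjusted p = 0.856). Anxa7 changed sign when probe sets were averaged (0.057, adjusted p = 0.885). Leaving out LN CD103-Klrg1- replicate 1 or 2 took 48 and 45 of them below the threshold, and leaving out 1 homeostatic Foxp3+ array took 20 each time. Gzmb, Klrg1, Itgae and Bcl2 kept direction and call in every alternative run. With 2 resident arrays, precision is limited, and differences of genes near background are bounds. Where a setting moved a value, the cause was not tested.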

Other observations

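In other gene groups the number of members called between homeostatic Foxp3+ and LN CD103-Klrg1- cells depended on the setting. Over all genes tested 6.4% were called higher and 7.01% lower, against which the counts below can be set. Of 39 interferon-induced genes, 1 was higher (Gbp2) and 4 were lower, with a median of -0.14; the lower count was 1 without LN CD103-Klrg1- replicate 1 and 2 without LN CD103-Klrg1- replicate 2 or homeostatic Foxp3+ replicate 1 or 3, and over all settings 0 to 9 were higher and 1 to 12 lower. Usp18, a brake on interferon signalling, had 9.09, 9.03 and 9.29 on homeostatic Foxp3+ arrays and 9.38, 9.01 and 9.08 on homeostatic Foxp3- arrays, against 10.48 and 10.47 on LN CD103-Klrg1- arrays. Of 27 glycolysis and hypoxia genes, Hk2 was higher and Pdk1 and Eno3 lower, and 0 to 8 were higher over all settings. Pdk1, which holds pyruvate back from the mitochondrion, had 8.67, 9.04 and 9.14 on homeostatic Foxp3+ arrays and 8.46, 8.94 and 8.73 on homeostatic Foxp3- arrays, against 12.04 and 12.09 on LN CD103-Klrg1- arrays. Of 27 cholesterol and fatty acid synthesis genes, 1 was higher (Hsd17b7) and 2 were lower (Insig1 and Scd1), and over all settings 1 to 6 were higher and 0 to 5 lower. Of 24 TGF-beta signalling genes, Bmpr1a was higher and Itgb8 lower, and the median was -0.45. From 1 to 12 of them were lower over all settings, most with array weights, and the array means were 8.08 to 8.17 on homeostatic Foxp3+ arrays against 8.58 and 8.61 on LN CD103-Klrg1- arrays.

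Of 17 heat shock genes, 0 were higher and 1 lower, and of 16 TNF receptor family genes 1 was higher and 1 lower. Of 17 genes lower in Treg than in conventional cells, 1 was higher and 3 lower. Of 12 MHC class II pathway genes, 2 were higher and 2 lower. H2-Ob, a regulator of peptide loading, had 9.41, 9.10 and 9.53 on homeostatic Foxp3+ arrays and 5.63, 7.45 and 6.12 on homeostatic Foxp3- arrays, against 11.14 and 11.10 on LN CD103-Klrg1- arrays. Its call against the resident cells was lost without either LN CD103-Klrg1- array (adjusted p = 0.0676 and 0.0723). Of 10 MHC class I genes, 2 were higher and 1 lower, and of 5 Ly6 genes 1 was higher and 2 lower. Of 13 CD8 T and natural killer cell markers, 5 were higher and 0 lower (2 without homeostatic Foxp3+ replicate 2 or either LN CD103-Klrg1- array, 3 without homeostatic Foxp3+ replicate 3), while Cd8a lay at 6.81 to 7.58 on homeostatic Foxp3+ arrays against 7.05 and 7.14 on LN CD103-Klrg1- arrays. Of 9 stromal markers, 2 were higher and 0 lower.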
